A study of Homo sapiens with 6 samples.

Results

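The baseline transcriptome of HEK293 was described from 3 RNA sequencing libraries with the genotype label wild type, out of 6 libraries in the series. HEK293 is an established line of human embryonic kidney cells that carries integrated adenovirus DNA. The 3 were chosen by that label alone, with no measured value. The other libraries carry a CRISPR/Cas9 knockout of STAT5B and were not used here. The wild-type cells grew in Dulbecco's modified Eagle's medium with fetal bovine serum, with no other agent named in the labels. Their sample names hold the word Sham, which the labels do not explain, and the culture text also speaks of GS knockout clones, an unexplained name. The labels state that experiments were done in triplicate but not whether the 3 libraries came from separate cultures, so the SD values below measure only the spread between these libraries, which may be technical.

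A baseline transcriptome is the set of transcripts that a cell line holds before any perturbation. HEK293 is widely used to express introduced genes, receptors and channels and to make viral vectors, so which endogenous paralogue of a receptor, channel or enzyme family it transcribes is part of the background of such assays. The line was derived from cultured embryonic kidney tissue, and its parent cell type has long been debated because neuronal and adrenal markers have been described in it beside renal ones. Within a gene family, paralogues often encode proteins with similar activity that differ in tissue distribution, regulation or affinity.

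The libraries held 17686407, 19040818 and 20279181 estimated counts. Of 60564 genes, between 22674 and 23084 had a count in a library. Levels are given in TPM (transcripts of a gene per 1000000 transcripts), which divides counts by effective gene length and scales each library to the same total, so genes can be compared within a library. A gene was called expressed at a mean of 1 TPM or more over the 3 libraries, absent at 0 counts in each of them, and detected below the threshold otherwise. Unless stated otherwise, values are means ± SD over the 3 libraries (n = 3) in TPM. For an absent protein-coding gene, 3 counts would give a median of 0.246, 0.226 and 0.213 TPM in the 3 libraries, so absence holds down to about that level and covers counting error only. Mitochondrially encoded genes took 1.76%, 1.97% and 1.67% of counts. Each pair of libraries differed beyond counting error (chi-square over its degrees of freedom 2.45, 2.68 and 3.15), so none was counted as a copy of another.

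Of all 60564 genes, 15526 were called (25.6%) and 34187 were absent (56.4%). Protein-coding genes were called far more often: of 19887, 12445 were called (62.6%), 3301 were detected below 1 TPM and 4141 were absent (20.8%). The shares of 62.6% and 20.8% are the background for the coding gene lists below, and a list near them does not stand apart. The called coding genes had a median of 24.3 TPM. Most of them, 7368, lay between 10 and 100 TPM, with 3423 from 1 to 10, 1519 from 100 to 1000 and 135 above 1000 TPM. Among the other called genes were 834 processed pseudogenes, 671 antisense genes and 547 long intergenic noncoding RNA genes. The sources used here do not state whether the counting was stranded, so reads of an antisense gene and of the gene it overlaps cannot be told apart. Protein-coding genes took 93.1% of the summed TPM and processed pseudogenes 3.89%.

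The 8 promoter stretches below are examples of the reference DNA in front of the RefSeq start of genes that were called, absent or nearly so. As chosen examples they do not show how these classes differ. Each is the 100 bases before the gene start in RefSeq (GRCh38.p14; the build named for the files is hg38), written along the gene's strand, with every CpG dinucleotide in capitals. EEF1A1 (chr6:73521033-73521132, minus strand) and GAPDH (chr12:6535164-6535263, plus strand) are among the most abundant mRNAs. SIX2 (chr2:45009453-45009552, minus) and PAX8 (chr2:113278922-113279021, minus) are kidney transcription factor genes, the first called and the second represented by 1 count in all. STAT5B (chr17:42276392-42276491, minus) and STAT5A (chr17:42287339-42287438, plus) are neighbouring paralogues, the first called and the second absent. MGMT (chr10:129467141-129467240, plus), which encodes a DNA repair enzyme that removes alkyl groups from guanine, and IFNB1 (chr9:21077943-21078042, minus), which encodes interferon beta, were both absent. MGMT was chosen after its value was seen.
EEF1A1: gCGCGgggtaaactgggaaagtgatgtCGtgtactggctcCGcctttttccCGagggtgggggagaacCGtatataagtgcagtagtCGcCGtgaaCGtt
GAPDH: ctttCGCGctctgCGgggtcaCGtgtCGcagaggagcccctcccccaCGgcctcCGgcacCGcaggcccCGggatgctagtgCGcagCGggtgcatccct
SIX2: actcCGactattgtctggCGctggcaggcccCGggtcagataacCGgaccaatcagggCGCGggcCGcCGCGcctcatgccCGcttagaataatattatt
PAX8: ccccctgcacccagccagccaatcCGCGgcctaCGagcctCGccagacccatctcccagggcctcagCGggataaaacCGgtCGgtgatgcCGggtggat
STAT5B: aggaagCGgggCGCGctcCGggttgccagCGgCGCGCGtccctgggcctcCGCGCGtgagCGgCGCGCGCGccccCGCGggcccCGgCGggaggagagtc
STAT5A: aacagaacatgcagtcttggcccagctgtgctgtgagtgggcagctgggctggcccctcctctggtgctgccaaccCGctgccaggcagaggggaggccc
MGMT: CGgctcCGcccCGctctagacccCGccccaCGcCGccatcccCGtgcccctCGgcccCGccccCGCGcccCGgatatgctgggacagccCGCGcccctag
IFNB1: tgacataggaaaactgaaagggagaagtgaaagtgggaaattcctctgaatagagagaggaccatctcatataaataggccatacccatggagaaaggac

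In the full RefSeq window of 300 bases, from 250 before to 50 after the start, STAT5B held 55 CpG dinucleotides and STAT5A 3. EEF1A1 held 24, GAPDH 28, SIX2 29 and PAX8 13. MGMT held 45 although no library had a read of it, and IFNB1 held 1. Of the 8 stretches, the IFNB1 one alone held the letters TATAAA of a TATA box. RefSeq can list another start than the one these cells use, and alternative starts were not examined. In GENCODE release 29 the gene spans are chr12:6533927-6538374 for GAPDH and chr6:73515750-73523797 for EEF1A1. The stretches printed for these genes lie inside those spans, so they are not in front of the whole annotated gene.

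Over all 15271 coding genes with a matched promoter, out of 19361 with a symbol, the median number of CpG dinucleotides per window was 27 for called genes, 11 for genes detected below 1 TPM and 4 for absent genes. The ratio of observed to expected CpG, which corrects for base composition, had medians of 0.85, 0.48 and 0.25 in the same order. Of all 15271 windows, 10091 belonged to called genes and 2890 to absent genes. Windows with a ratio of 0.6 or more belonged to a called gene in 85.6% of cases (8704 of 10167), against 27.2% (1387 of 5104) below that ratio. High CpG content did not mean that a gene was called: 529 windows at or above 0.6 (5.20%) belonged to absent genes. High levels were also not limited to CpG-rich windows: RPL6 (2831 ± 100.1 TPM), LDHB (1751 ± 22.3) and ALDOA (1612 ± 94.7) had windows with a ratio under 0.6. The shares describe genes, which are not replicates, and no test was made.

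Short sequence words in the windows, searched on both strands, also differed between the classes. TATAAA was found in 5.20% of windows of called genes, 12.9% of those of genes below 1 TPM and 22.4% of those of absent genes, and in 9.61% of all windows. GGGCGG, the core of the GC box that SP1 binds, went the other way, with 72.2%, 46.9% and 23.9% against 59.2% of all windows. CCGGAAGT, a word bound by ETS factors, was in 9.08%, 1.53% and 0.484%, against 6.32% of all. CCAAT differed little, with 37.1%, 33.8% and 36.9%, against 36.6% of all. TTCNNNGAA, the word that STAT factors bind, was found in 6.07%, 7.25% and 9.97%, against 6.99% of all windows. A match is a description of the letters and not a bound site, and none of these words contains another. The median share of G and C in the windows moved with the classes, at 66%, 59.3% and 50.7%, and its part in these shares was not tested.

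**Figure D1:**
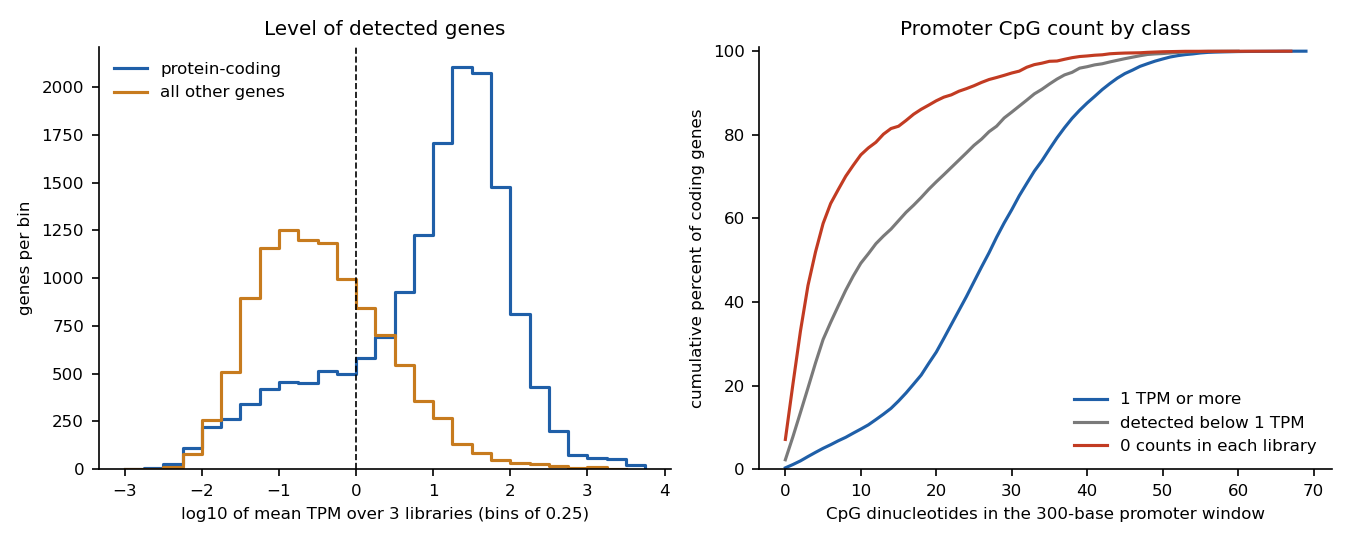
Left, number of genes per bin of log10 mean TPM over the 3 libraries, for protein-coding and all other genes with a count, with a dashed line at 1 TPM. Right, cumulative percent of coding genes against the number of CpG dinucleotides in the 300-base promoter window, for called genes (median 27), genes detected below 1 TPM (median 11) and absent genes (median 4).

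The most abundant transcripts belonged to the translation machinery and to mitochondrial DNA. EEF1A1, which delivers aminoacyl-tRNA to the ribosome, led all named genes with 6609.6, 6542 and 6517 TPM in the 3 libraries (6556 ± 47.8). It was followed by RPL39 (6312 ± 61.6), MT-ATP8 (6217 ± 535), RPS2 (5773 ± 129), MT-CO3 (4714 ± 388), MT-CO1 (4625 ± 429.6), RPL41 (4469.6 ± 149), BCYRN1 (4448 ± 522), RPL15 (4214 ± 130.2) and NPM1 (4164 ± 14.2). The next 10 included MT-ATP6, RPL37A, RACK1, RPS18, MT-ND3, RPS6, RPL10, MT-CO2 and RPL8, from 4147 down to 3547 TPM. Of the 100 most abundant named genes, 53 encoded ribosomal proteins, 13 were mitochondrially encoded, 3 were pseudogenes and 29 were other coding genes. The 10 highest genes took 5.09% to 5.22% of the TPM of a library, the 100 highest 26.0% to 26.3% and the 1000 highest 59.1% to 59.3%. BCYRN1 is a small noncoding RNA of 200 bases related to Alu repeats, so reads from other Alu copies may be counted on it and its level is uncertain. MT-ATP8, of 207 bases, also has a small effective length.

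After EEF1A1, the highest coding genes outside the ribosomal proteins and mitochondrial DNA were NPM1, a nucleolar chaperone, and RACK1, a scaffold on the small ribosomal subunit (3782 ± 81.9). GAPDH (3134 ± 103), the chromatin-associated protein PTMA (2913 ± 106), the actins ACTG1 (2843 ± 81.3) and ACTB (2635 ± 54.8) and the RNA-binding protein YBX1 (2714 ± 72.8) came next. RACK1 lay above GAPDH without overlap, but GAPDH overlapped PTMA, PTMA overlapped ACTG1 and YBX1 overlapped ACTB, so those neighbours are not ordered.

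Several processed pseudogenes had high values, which limits how exactly their parent genes can be ranked. RPL36AP37 stood at 3387 ± 49.4 TPM, RPL23AP42 at 2226 ± 35.5, RPS2P5 at 1618 ± 18.1, RPS28P7 at 1322 ± 68.3 and EEF1A1P5 at 1314 ± 32.8. Such copies differ from the parent mRNA at few bases, so reads can be split between them. The levels of ribosomal protein genes and of EEF1A1 are therefore uncertain to that extent.

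Markers of early kidney development were called about as often as coding genes in general, while those of mature nephron segments were mostly low or absent. Of the defining markers of an embryonic kidney line, PAX2, LHX1, EYA1, SALL1 and WT1 reached 1 TPM. PAX8, a factor of renal epithelium, had 1 count in 1 library. The defining markers of the labelled tissue were thus present in part. In bulk RNA, fewer cells of a type and less RNA per cell cannot be told apart, and this holds for every list below.

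Among nephron progenitor factors, 7 of 10 were called, a share near the 62.6% of all coding genes. SIX2, which keeps these progenitors undifferentiated, had 52.6, 49 and 51.1 TPM in the 3 libraries (50.9 ± 1.83). CITED1 had 44.2, 45.1 and 41.1 (43.5 ± 2.11). SIX2 lay above CITED1 in every library without overlap of their ranges, whereas CITED1 and HOXD11 (40.5 ± 1.89) overlapped. WT1, which acts in progenitors and podocytes, had 22.3, 14.1 and 20.1 (18.8 ± 4.23), and SALL1 14 ± 1.23. EYA1, a transcriptional coactivator of nephron progenitors, had 0.766, 0.765 and 2.1, so that 1 library alone was above 1 TPM. GDNF (0.864 ± 0.138), MEOX1 (0.595 ± 0.106) and OSR1 (0.535 ± 0.183) stayed below 1 TPM.

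Ureteric bud and renal epithelial factors were also called in 7 of 10 cases, near that background, but at lower levels. HOXB7 (25.6 ± 3.39) led, followed by GATA3 (9.91 ± 2.16), EMX2 (6.6 ± 0.629), WNT11 (6.17 ± 1.12), LHX1 (2.71 ± 1.17) and RET (2.69 ± 0.186), the receptor for GDNF. PAX2, a regulator of both renal lineages, had 1.77, 1.47 and 1.94 TPM (1.73 ± 0.238).

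Podocyte markers were split. CD2AP (43.3 ± 0.417), PODXL (28.4 ± 1.02), PLCE1 (3.25 ± 0.227) and PTPRO (2.23 ± 0.771), genes with wider expression in other tissues, were called. NPHS1, which encodes the slit diaphragm protein nephrin, had 0.091 TPM.

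Of 12 proximal tubule markers 2 were called, the endocytic receptor LRP2 (10.5 ± 1.37) and GGT1 (1.8 ± 0.109). The transporters SLC34A1, SLC22A6 and SLC22A8 and the factor HNF4A were absent. Of 13 distal nephron and collecting duct markers 3 were called, all under 2 TPM: AQP3 (1.69 ± 0.274), ATP6V1B1 (1.26 ± 0.683) and PVALB (1.15 ± 0.56). UMOD, SLC12A3, AQP2 and FOXI1 were absent. The shares, 16.7% and 23.1%, lie below the 62.6% of all coding genes.

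Adrenal cortex markers were not called in any of 12 cases. The highest was SULT2A1 (0.213 ± 0.10), and NR5A1, the master regulator of steroidogenic cells, had 0.109 ± 0.0979. Sympathoadrenal markers were called in 7 of 13 cases (53.8%), against 62.6% of all coding genes. Those called were the transcription factors GATA2 (26.9 ± 2.72), HAND1 (16.4 ± 0.445), GATA3, ISL1 (6.85 ± 0.455) and HAND2 (1.7 ± 0.545) and the granins CHGA (3.3 ± 0.261) and CHGB (2.15 ± 0.311). The factor PHOX2A and the catecholamine enzymes TH and DBH were absent.

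Neuronal cytoskeletal and pan-neuronal markers were called in 14 of 20 cases, near the 62.6% of all coding genes. UCHL1, a neuronal ubiquitin hydrolase, had 498 ± 12.7 TPM. The neurofilament gene NEFM had 222, 238 and 231 TPM in the 3 libraries (230.3 ± 7.9), NEFL 61.7 ± 1.26, and the related INA 56.2 ± 3.78. The synaptic vesicle protein SYP (23.1 ± 1.87), the adhesion molecule NCAM1 (16.6 ± 1.42) and the microtubule protein MAPT (12.8 ± 0.547) followed. Some of the other markers were near or under the threshold: MAP2 had 1.25 ± 0.208, NEFH 0.78 ± 0.169, SNAP25 0.591 ± 0.251 and STMN2 0.111 ± 0.0403. ELAVL3 (0.0207 ± 0.021) and ELAVL4 (0.0237 ± 0.0222) were almost at 0 and DCX, a marker of migrating neurons, was absent.

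Of neural progenitor factors 5 of 10 were called: PAX6 (28.8 ± 0.167), MSI1 (26.1 ± 1.42), SOX2 (9.99 ± 0.656), NEUROG2 (1.57 ± 0.445) and SOX3 (1.24 ± 0.196). SOX1, SOX11 and FABP7 were absent. Of glial markers 4 of 10 were called, among them OLIG2 (5.68 ± 1.03), OLIG1 (4.71 ± 0.162) and MBP (2.44 ± 0.376), while S100B and SOX10 were absent.

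Some epithelial and some mesenchymal markers were called. Among 18 epithelial markers 7 were called: KRT18 (91.5 ± 4.22), TJP1 (44.9 ± 4.05), ESRP2 (28.9 ± 0.896), OCLN (28.3 ± 3.02), KRT8 (16.4 ± 0.26), EPCAM (3.48 ± 0.724) and CDH1 (3.15 ± 1.21). KRT7, KRT19, KRT5, KRT14, OVOL1 and CDH16 were absent. Among 19 mesenchymal markers 11 were called, or 57.9%, near the 62.6% of all coding genes. The epithelial share, 38.9%, was below that background. The mesenchymal markers were led by the intermediate filament gene VIM (599 ± 7.68), CDH2 (30.7 ± 0.874), TWIST1 (17.9 ± 0.427), ZEB1 (16.9 ± 1.35), FN1 (16 ± 2.65) and ZEB2 (11.6 ± 0.713). CDH2, the N-cadherin gene, was higher than CDH1, the E-cadherin gene, in every library.

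Pluripotency factors were called in 3 of 12 cases, DNMT3B (17.8 ± 0.0342), SOX2 and UTF1 (2.62 ± 1.05), and NANOG, LIN28A, DPPA4, TDGF1, ZFP42, L1TD1 and PRDM14 were absent. Of endothelial markers FLT1 (4.32 ± 0.56) alone of 10 was called. Of 15 haematopoietic markers 2 were called, among them HBA1 (4.11 ± 0.925), which shares nearly all its sequence with HBA2, while PTPRC, which marks all leukocytes, was absent. Of 10 muscle markers TNNI3 (12.1 ± 2.55) and MYOD1 (1.47 ± 0.419) were called and MYOG, MYH7, TNNT2 and CKM were absent. None of 10 hepatocyte markers was called. Of 21 germ cell and cancer-testis genes PRAME (29.5 ± 1.91) was the single one called, and 13 were absent.

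Imprinted genes, of which a single parental copy is normally active, were called in 6 of 20 cases: PLAGL1 (57.3 ± 0.87), GRB10 (33.7 ± 1.48), SGCE (25.5 ± 1.1), PHLDA2 (7.46 ± 0.237), CDKN1C (3.42 ± 0.975) and IGF2 (1.61 ± 0.234). H19, the neighbour of IGF2, had 0.225 ± 0.153 TPM. DLK1, MEG3, PEG3, NDN, NNAT and ZIM2 were absent. SNRPN also had 0 counts, but it shares its transcript with SNURF, so its value is uncertain.

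**Figure D2:**
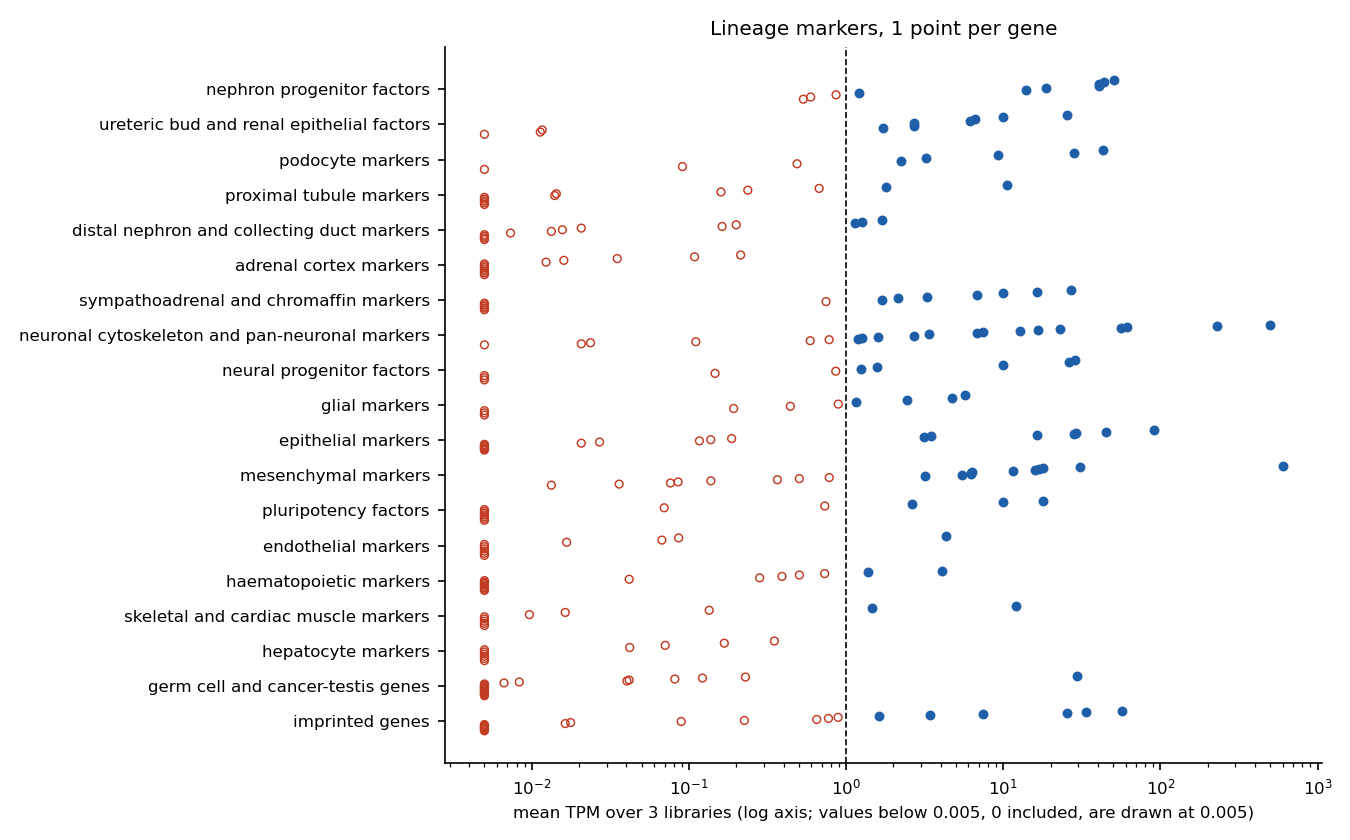
Mean TPM over 3 libraries (log axis) of every member of the 19 marker lists, 1 point per gene, filled at 1 TPM or more and open below. Values under 0.005, including 0, are drawn at 0.005, and the nephron progenitor list reaches 50.9 TPM while no adrenal cortex or hepatocyte marker passes the dashed line at 1 TPM.

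In most enzyme, structural and signalling families 1 paralogue held most of the transcripts. The 50 paralogue lists examined held 299 genes. In 47 of them the leading member lay above the next without overlap of their ranges over the 3 libraries. The leading member held over 50% of its family's TPM in 34 families and over 90% in 13, and 25 families had at least 1 absent member. The lists hold from 2 to 16 genes, and in a list of 2 the leading member cannot hold less than 50%. The count of 34 includes such lists, so part of it was fixed by list size. With 3 paired libraries, an exact test cannot go below p = 0.25, so neighbours are described by their ranges.

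Glycolytic transcripts came mostly from the widely expressed paralogues. HK1 had 86.4, 83.6 and 85.8 TPM and HK2 41.8, 36.3 and 46.7, ranges that do not overlap, with HK3 at 0.00967. HKDC1 was absent. The phosphofructokinases PFKL (84.4 ± 4.72), PFKM (77.4 ± 0.806) and PFKP (76.4 ± 2.97) lay close together, and the order changed with the length used. ALDOA held 99.6% of the aldolase transcripts with 1666, 1503 and 1668 TPM, and ALDOC had 5.95 ± 0.71. GAPDH, PGK1 (377 ± 25), PGAM1 (577 ± 21.7) and PKM (1091, 1031 and 1127) were called, while the germ cell forms GAPDHS and PGK2 and the liver form PKLR were absent and PGAM2 had 0.0427. Among the enolases, ENO1 (1527 ± 61.1) stood above the neuronal ENO2 (31.5 ± 2.34) and the muscle ENO3 (8.08 ± 1.06).

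The lactate dehydrogenase genes LDHB and LDHA could not be ranked. LDHB had 1776, 1736 and 1739.8 TPM (1751 ± 22.3) and LDHA 1716, 1579 and 1938 (1744 ± 181), so LDHA was higher in 1 library and lower in the other two. LDHC, known from testis, had 12.8 ± 1.57. Lactate is exported by monocarboxylate transporters, of which SLC16A1 (253 ± 8.63) led over SLC16A7 (4.11 ± 0.314), and SLC16A3 was below the threshold (0.234 ± 0.157). Glucose transporters were led by SLC2A1 (46.8 ± 5.25), SLC2A8 (13.7 ± 1.36), SLC2A6 (7.8 ± 0.234) and SLC2A13 (7.59 ± 0.819). SLC2A3 had 0.904 ± 0.318 and the liver transporter SLC2A2 was absent.

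Genes of energy buffering and respiration showed the same restriction. The brain creatine kinase CKB reached 1566 ± 49.2 TPM. The mitochondrial forms CKMT1B (71.3 ± 6.22) and CKMT1A (47.4 ± 2.51) are near-identical copies whose split is uncertain, and the muscle form CKM was absent. Of the adenine nucleotide translocases, SLC25A5 (1204 ± 34.1) and SLC25A6 (516 ± 8.21) stood above the heart form SLC25A4 (21.9 ± 0.688), and SLC25A31 was absent. The widespread cytochrome c oxidase subunits COX6A1 (699 ± 27.5), COX4I1 (553 ± 15.4), COX6B1 (434 ± 23), COX8A (386 ± 26.8), COX7A2 (303 ± 5.23) and COX7B (299 ± 19) were called. Their tissue-restricted relatives COX6A2, COX4I2, COX7A1 and COX7B2 were absent. UCP2 (70.1 ± 1.29) and UCP3 (1.12 ± 0.154) were called and the brown fat uncoupling protein gene UCP1 was absent. The glutamine enzymes GLS2 and GLUL had 5.67 ± 0.548 and 412 ± 13.2 and ASNS 168 ± 11.5.

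Cytoskeletal families were led by the nonmuscle members. ACTG1 lay above ACTB, and the muscle actin ACTA2 had 3.16 ± 0.442. Tubulins were led by TUBA1B (2296 ± 34), TUBA1C (702 ± 28.2) and TUBA1A (123 ± 0.626) and by TUBB (1385 ± 24.3) and TUBB4B (477 ± 4.76), with the neuronal TUBB3 at 6.83 ± 0.451 and TUBA3C, TUBA3D and TUBB1 absent. The beta thymosin TMSB10 (896 ± 12.8) was far above TMSB4X, which had 27.2, 21.9 and 22 TPM. TMSB4X has several near-identical pseudogenes, so that level is uncertain. CFL1 (1023 ± 41) and PFN1 (981 ± 32.2) overlapped as the leading actin-binding proteins of their list, above PFN2 (179 ± 1.47), DSTN (135 ± 2.89) and CFL2 (118 ± 4.14). MYH9 (183 ± 5.43), MYH10 (169 ± 2.42) and MYH14 (13.1 ± 1.31) were called and the smooth muscle MYH11 was near 0 (0.0777). Tropomyosins followed the order TPM3 (305 ± 4.38), TPM4 (121 ± 4.32), TPM1 (49.2 ± 1.83) and TPM2 (10.2 ± 1.06). Among lamins of the nuclear envelope, LMNB1 (254 ± 5.7) and LMNB2 (180.4 ± 2.51) were above LMNA (35.4 ± 2.68).

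Pumps, calcium release channels and adaptor families also had leading members. ATP1B3 (201 ± 2.97) led the beta subunits of the sodium pump, followed by ATP1B1 (23.7 ± 0.206) and ATP1B2 (3.76 ± 0.533), while the alpha subunit gene ATP1A4 was absent. The calcium pumps ATP2A2 (158 ± 4.81), ATP2B1 (66.8 ± 3.8) and ATP2B4 (49.1 ± 1.95) were above the muscle form ATP2A1 (2.54 ± 0.673) and ATP2A3 (1.16 ± 0.486). IP3 receptors, which release calcium from the endoplasmic reticulum, were ordered ITPR3 (21 ± 0.665), ITPR2 (10.2 ± 0.958) and ITPR1 (6.69 ± 0.209), and of the ryanodine receptors RYR2 alone was called (1.76 ± 0.48). The calmodulin genes CALM2 (433 ± 7.0) and CALM3 (349 ± 7.5), which encode the same protein, were both high, and CALML3 and CALML5 were absent. Among phosphoserine-binding adaptors YWHAE (1718 ± 8.56) led over YWHAZ (885 ± 13.6), YWHAQ (405 ± 6.49) and YWHAB (309 ± 7.34), and the epithelial SFN had 0.331 ± 0.0722.

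Among chaperones, HSPA8 (1549 ± 45.3) led the HSP70 family, followed by HSPA1B (749.9 ± 28), HSPA9 (454 ± 18.9), HSPA4 (331 ± 8.5) and HSPA5 (244 ± 4.53). HSPA1A had 20.1 ± 1.34, but it is nearly identical to HSPA1B, so the split between them is uncertain. HSP90AA1 (1634 ± 10.3) exceeded HSP90AB1 (1340.2 ± 10.4), HSP90B1 (574 ± 23.7) and TRAP1 (262 ± 5.06). EEF1A2, the elongation factor of neurons and muscle, had 104 ± 1.11.

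Of nucleic acid enzymes, DNMT1 (214 ± 23), which copies methylation at replication, was above DNMT3B, DNMT3A (12.2 ± 0.854), TET3 (13.8 ± 0.791), TET1 (12.9 ± 0.833) and TET2 (10.7 ± 0.0742), and DNMT3L was absent. TOP2A (170.3 ± 2.79), TOP1 (148 ± 1.15) and TOP2B (126 ± 4.87) led the topoisomerases, followed by TOP3B (47.3 ± 4.25), TOP3A (46.3 ± 3.08) and TOP1MT (28 ± 1.43). Among deaminases, ADAR (127 ± 2.41), APOBEC3C (33.3 ± 1.54), ADARB1 (13.1 ± 1.27), APOBEC3F (3.84 ± 0.711) and APOBEC3B (1.64 ± 0.47) were called. APOBEC1, APOBEC2 and ADARB2 were absent. Splicing regulators followed the non-neuronal pattern of PTBP1 (537 ± 13.4) over PTBP3 (46.8 ± 0.861) and PTBP2 (25.5 ± 2.46), and ELAVL1 (163 ± 6.92) over ELAVL2 (11.3 ± 0.86).

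Signalling kinases and their partners were mostly called. AKT2 had 114 ± 6.51 and AKT1 92.9 ± 7.79. PIK3CB (27.3 ± 0.707) was above PIK3CA (8.87 ± 0.045) and PIK3CD (2.0 ± 0.369), and the leukocyte form PIK3CG was absent. NRAS (109 ± 2.85) and HRAS (74.5 ± 2.65) and the RAF genes ARAF (52.6 ± 1.88) and BRAF (10.5 ± 0.533) were called. Of the SRC family, FYN (106 ± 7.13), YES1 (43.7 ± 0.703), LYN (21.9 ± 2.71) and SRC (17.1 ± 0.939) were called, while the leukocyte kinases FGR and BLK were absent.

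The JAK-STAT pathway, in which receptor-bound JAK kinases phosphorylate STAT transcription factors, was called in part, with JAK3 and STAT4 under 1 TPM and STAT5A absent. JAK1 had 75.5, 81.7 and 74.5 TPM (77.2 ± 3.92) and TYK2 68.8, 66.8 and 52.6 (62.7 ± 8.84). These ranges do not overlap, and both genes were far above JAK2, with 3.68, 2.52 and 2.98 (3.06 ± 0.584), and JAK3, with 0.463, 0.365 and 0.282 (0.37 ± 0.0906). STAT3 had 36.3, 34 and 38.2 TPM (36.2 ± 2.15), and STAT5B 35.9, 29.8 and 30.5 (32.1 ± 3.35). STAT3 was higher in each library, but the ranges overlapped, so the pair is not ordered. STAT2 (17.8 ± 1.5) and STAT6 (15.5 ± 1.33) overlapped below them, and STAT4 stayed under the threshold with 1.01, 0.772 and 0.817 (0.867 ± 0.128). STAT5A had 0 counts in each library, where 3 counts per library would average 0.169 TPM, so STAT5B was the one STAT5 paralogue detected.

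Cell cycle regulators of the G1 phase were all called. CDKN2A, which encodes the inhibitors p16 and ARF, was the highest of its 15-member list with 498, 471 and 491 TPM (487 ± 13.9), followed by CDK4 (289 ± 2.05), CDK2 (123 ± 9.68) and CDKN2C (79.8 ± 2.53). Of the D cyclins, CCND2 (41.3 ± 1.75) and CCND3 (36.3 ± 2.79) overlapped, and CCND1 (10.4 ± 0.766) was below both. RB1 had 62 ± 0.261, E2F4 68.9 ± 3.78 and E2F1 53.4 ± 0.987, with all 11 members of the retinoblastoma and E2F family called. The ubiquitin ligase MDM2 had 103 ± 5.44, with its relative MDM4 at 15.7 ± 2.43, TP73 at 6.59 ± 0.589 and TP63 absent.

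Oncofetal RNA-binding proteins were called: IGF2BP1 (115 ± 3.12), IGF2BP3 (42 ± 2.08), IGF2BP2 (39.2 ± 2.73) and LIN28B (55.9 ± 0.89), which blocks let-7 maturation. HMGA1 (432 ± 10.2) and HMGA2 (58.5 ± 0.745) were also called, and LIN28A was absent. In the BCL2 family 15 of 16 members were called. The pore former BAX (133 ± 8.78) and the protector MCL1 (129 ± 0.336) overlapped at the top, above PMAIP1 (94.6 ± 3.62) and BID (42.1 ± 0.531), while BCL2 itself had 2.48 ± 0.192 and BCL2A1 was absent. Of 12 caspases 6 were called, among them CASP2 (44 ± 2.71), CASP6 (25.6 ± 2.52), CASP8 (14.1 ± 1.07) and CASP9 (8.09 ± 1.26) of the apoptotic pathways, and 1 was detected below 1 TPM. The inflammatory caspases CASP1, CASP4 and CASP5, and CASP12 and CASP14, were absent.

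**Figure D3:**
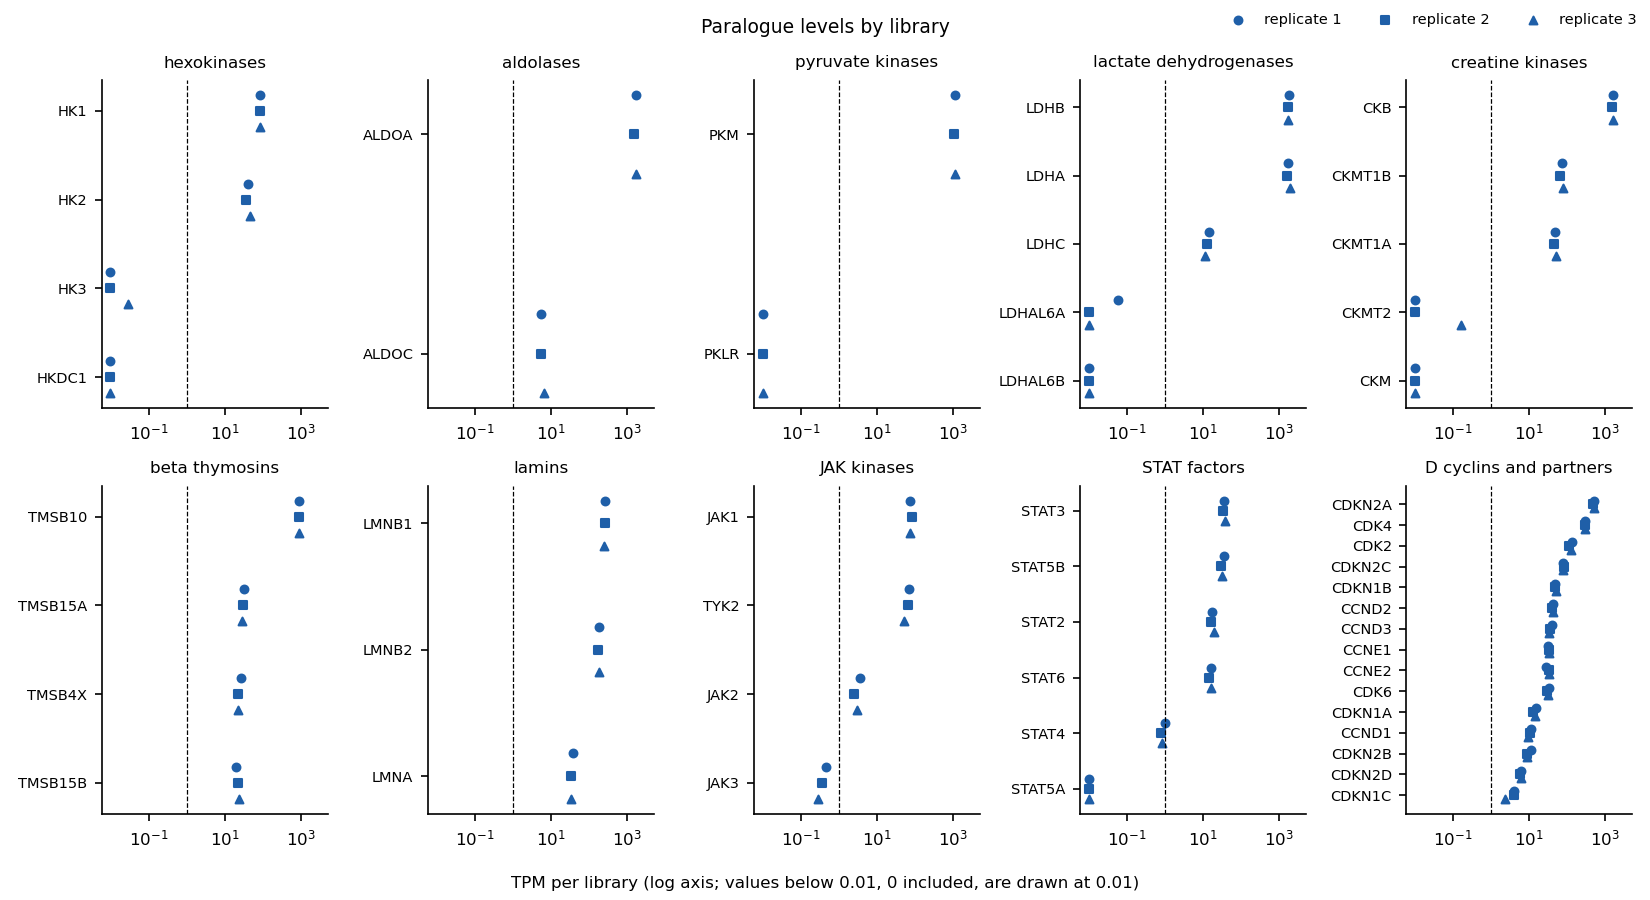
TPM in each of the 3 libraries (log axis) for members of 10 paralogue lists, with values under 0.01, including 0, drawn at 0.01 and a dashed line at 1 TPM. Leading members such as ALDOA, PKM and CKB exceed 1000 TPM, LDHB and LDHA overlap, and STAT5A is at 0 in every library.

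Receptor tyrosine kinases, counted with the decoy FGFRL1 and with IGF2R, were called in 43 of 60 cases, against 62.6% of all coding genes. Those called had a median of 7.75 TPM. RYK (58.4 ± 3.69) and IGF2R (52.3 ± 4.31) were highest. ERBB2 (16.5 ± 1.2) exceeded EGFR (6.82, 5.71 and 7.57; 6.7 ± 0.935), ERBB4 (2.38 ± 0.424) and ERBB3 (2.26 ± 1.09). IGF1R had 21.1 ± 0.666 and INSR 10.5 ± 0.478. FGFR1 (37.4 ± 2.42), FGFRL1 (35.6 ± 2.02), FGFR3 (25.4 ± 1.39), FGFR2 (13.9 ± 1.5) and FGFR4 (10.6 ± 1.5) were all called. FLT4 (28.3 ± 2.94), a lymphatic VEGF receptor, KIT (7.14 ± 1.24) and FLT1 were called, whereas PDGFRA (0.366 ± 0.156), PDGFRB (0.138 ± 0.182) and KDR (0.0673 ± 0.0245) were below 1 TPM and CSF1R was absent. PTK7 (34.1 ± 2.1) and MET (24.3 ± 0.87) followed RYK in their list, and MUSK, TEK and TIE1 were absent. Of 14 EPH receptors 12 were called, led by EPHB4 (37.6 ± 0.39), EPHA7 (24.7 ± 2.07) and EPHA4 (13.8 ± 2.62).

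Cytokine receptor chains were called in 21 of 43 cases (48.8%), against 62.6% of all coding genes. IFNGR2 (63.9 ± 2.58), IFNAR1 (55.8 ± 1.5) and IFNGR1 (48.6 ± 0.685), chains of the interferon receptors, led, followed by the shared chain IL6ST (47.8 ± 2.5). GHR, the growth hormone receptor, had 2.67 ± 0.0828, EPOR 4.53 ± 1.02 and IL6R 1.4 ± 0.335. PRLR and the chains IL2RA, IL2RB, IL7R, CSF2RB and CSF3R were absent, and IL2RG had 0.0483. TNF and death receptors were called in 11 of 22 cases, led by TNFRSF1A (37.3 ± 6.73), TNFRSF10B (35.4 ± 1.24) and TNFRSF21 (13.1 ± 1.1). TNFRSF10A, LTBR, CD27 and TNFRSF4 were absent. SIGIRR (27.9 ± 1.74), IL17RA (13.4 ± 1.52) and IL17RB (8.82 ± 0.634) led the interleukin receptors of that class, of which 7 of 13 were called. IL1R1 was below the threshold (0.883 ± 0.338) and IL1RL1 and IL1R2 were absent.

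Innate sensing genes were sparse. No Toll-like receptor reached 1 TPM: TLR6 had 0.547 ± 0.246, TLR5 0.313 ± 0.0605 and TLR1 0.24 ± 0.241, and TLR2, TLR3, TLR4, TLR7, TLR8 and TLR9 were absent. Their adaptors MYD88 (9.29 ± 0.635), TIRAP (9.24 ± 0.209) and TICAM1 (2.62 ± 0.376) were called. In cytosolic sensing, 8 of 17 genes were called, led by IRF3 (54.5 ± 8.58), EIF2AK2 (49.4 ± 2.47) and TBK1 (36 ± 2.12), with MAVS at 23.2 ± 1.22. The RNA sensors RIGI (1.92 ± 0.194) and IFIH1 (1.9 ± 0.41) were just above the threshold. CGAS (0.0953 ± 0.0863) and STING1 (0.332 ± 0.0559), which detect and relay cytosolic DNA, were below it, and IRF7, ZBP1, IFI16, AIM2 and OAS1 were absent. Of 12 inflammasome genes CARD8 (18.9 ± 1.6), NINJ1 (16.3 ± 1.23), NLRP1 (5.73 ± 0.722), GSDME (4.45 ± 0.128) and NAIP (3.86 ± 0.202) were called. The adaptor PYCARD, the pore former GSDMD and the cytokines IL1B and IL18 were absent, as was NLRP6, and NLRP3 had 0.0757 ± 0.102.

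Receptors of developmental pathways are read against the 62.6% of all coding genes called, which the Notch and Hedgehog share was near. TGF-beta and BMP receptors were called in 11 of 14 cases, led by TGFBR1 (30.2 ± 2.13), BMPR1A (24.8 ± 3.57) and BMPR2 (24.8 ± 1.14), with TGFBR2 at 6.34 ± 0.222. Wnt receptors and coreceptors were called in 15 of 17 cases, led by LRP5 (28.4 ± 0.198), FZD6 (18.9 ± 0.177) and LRP6 (18.2 ± 0.819). Of Notch and Hedgehog genes 10 of 15 were called, with NOTCH2 (48.6 ± 2.66), JAG2 (33.1 ± 4.89) and SMO (26.9 ± 1.54) highest, while the Hedgehog ligands SHH (0.0433), IHH (0.122) and DHH (0.048) were below 1 TPM.

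G protein-coupled receptors outside the adhesion class were called in 29 of 166 cases, and 62 were absent, against 62.6% called and 20.8% absent among all coding genes. ADORA2B, an adenosine receptor coupled to cyclic AMP, was highest with 27.2, 23.6 and 27.7 TPM (26.2 ± 2.23). F2RL1 (19.2 ± 1.39) and F2R (17.2 ± 0.926), protease-activated receptors, overlapped in the next places, and F2R also overlapped P2RY11. P2RY11 (15.2 ± 2.27), ADRA2C (13.2 ± 0.632), CXCR4 (13.2 ± 2.59), LPAR3 (12.8 ± 0.667), P2RY1 (11.9 ± 0.801) and GABBR1 (11.6 ± 1.58) followed. P2RY11 shares exons with a readthrough transcript of its neighbour PPAN, so its level is uncertain. From the tenth place on, every receptor was under 7 TPM.

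By class, the lysophospholipid receptors were the best represented, with 6 of 11 called. After LPAR3 came LPAR1 (5.85 ± 0.0586), S1PR3 (4.42 ± 0.487), LPAR2 (4.02 ± 1.35), S1PR2 (4.0 ± 0.219) and S1PR1 (2.71 ± 0.127). Of muscarinic receptors CHRM3 alone was called (1.26 ± 0.0847), of adrenergic receptors ADRA2C alone, of serotonin receptors HTR6 alone (2.11 ± 0.525), of chemokine receptors CXCR4 alone of 22 and of prostanoid receptors PTGER2 alone (1.61 ± 0.40). ADRB1 (0.86 ± 0.205) was below the threshold. No dopamine, histamine or opioid receptor was called. ADORA2A passed through 1 library, with 3.74, 0 and 0.595 TPM. P2RY2 had 1.59 ± 0.266, and the platelet and leukocyte receptors P2RY8, P2RY10, P2RY12, P2RY13 and P2RY14 were absent. GABBR2, the partner of GABBR1 in the GABA-B receptor, had 6.11 ± 1.4. Of 55 peptide hormone receptors 9 were called, led by VIPR1 (6.23 ± 0.368), MC1R (4.53 ± 0.564) and NPY1R (3.69 ± 0.126), and AGTR1, the angiotensin receptor, had 1.36 ± 0.224. Adhesion receptors were called in 15 of 31 cases, led by ADGRL2 (51.8 ± 2.26), ADGRL1 (33.1 ± 1.03) and ADGRA3 (18.1 ± 0.483).

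**Figure D4:**
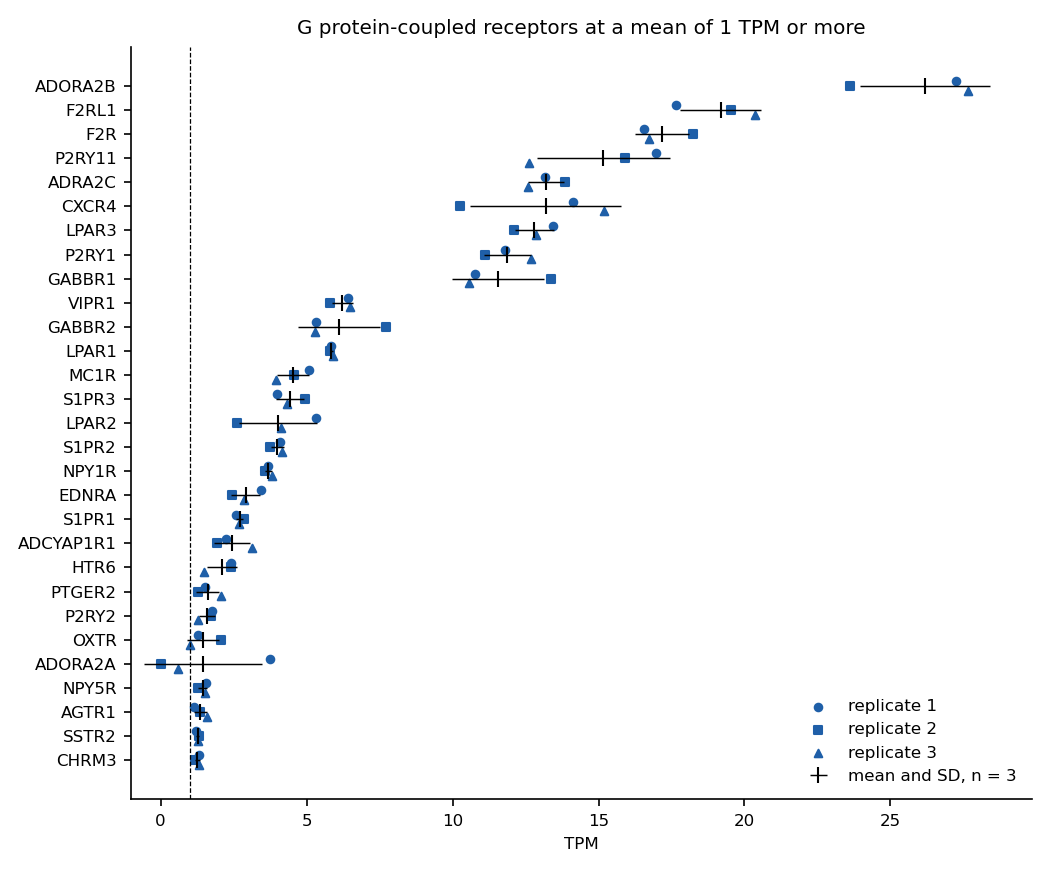
TPM in each of the 3 libraries for the 29 G protein-coupled receptors outside the adhesion class at a mean of 1 TPM or more, with the mean and SD (n = 3). ADORA2B is highest at 26.2 TPM, and ADORA2A passes the dashed line at 1 TPM through replicate 1 alone.

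Downstream of these receptors, GNAS, the stimulatory G protein subunit, had 929 ± 41.9 TPM, far above GNA11 (61.8 ± 0.837) and GNAI2 (49.6 ± 1.17). In all, 11 of 16 alpha subunit genes were called (68.8%), near the 62.6% of all coding genes. ARRB2 (82.6 ± 4.51) exceeded ARRB1 (8.98 ± 0.916), and GRK6 (71 ± 4.43) and GRK2 (55.6 ± 3.18) led the receptor kinases. The adenylyl cyclases called were ADCY3 (50.8 ± 4.16), ADCY9 (22.4 ± 1.77), ADCY6 (15 ± 0.736), ADCY1 (11.7 ± 2.35) and ADCY7 (1.67 ± 0.131), and ADCY2 and ADCY8 were absent.

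Nuclear receptors were called in 36 of 48 cases (75%), against 62.6% of all coding genes. They were led by NR2F2 (77.1 ± 1.6), NR2C1 (54 ± 1.31) and NR2F6 (53.5 ± 2.91). The glucocorticoid receptor NR3C1 had 17.3 ± 0.454, ESR2 1.9 ± 0.165, ESR1 0.215 ± 0.293 and PGR 0.0347 ± 0.0136. NR1I2, NR1H4, HNF4A, NR0B1 and NR0B2 were absent. Viral entry receptors were called in 17 of 23 cases, led by SLC1A5 (263 ± 5.42), TFRC (134 ± 0.0352) and SLC20A1 (122 ± 4.63), with the adenovirus receptor CXADR at 41.6 ± 3.19. TMPRSS2 (0.137 ± 0.128) was below the threshold, and SLC10A1 and HAVCR1 were absent. Integrin subunits were called in 14 of 26 cases (53.8%), led by ITGB1 (76.1 ± 2.3), ITGAE (43.7 ± 1.34) and ITGAV (24.2 ± 0.491). The leukocyte subunits ITGAM and ITGB7 were absent, with ITGB6.

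Ion channel genes were called in 87 of 217 cases, below the 62.6% of all coding genes, and 53 were absent, a share near the 20.8% of all coding genes. Voltage-gated sodium channel genes reached at most 3.62 TPM, in SCN9A, followed by SCN3B (2.81 ± 0.067) and SCN8A (2.24 ± 0.403), and the pore-forming SCN1A and SCN10A were absent. Among calcium channel genes, the auxiliary subunits CACNA2D1 (13.9 ± 2.77), CACNB4 (6.51 ± 0.736) and CACNA2D2 (5.82 ± 0.721) led. The highest pore-forming member was CACNA1H (5.49 ± 0.98), a T-type channel. Of voltage-gated potassium channels 10 of 30 were called, among them KCNC4 (9.26 ± 1.27) and KCNQ5 (6.88 ± 0.451), and KCNH2 had 2.17 ± 0.334. KCNJ8 (13.9 ± 0.489), KCNJ11 (7.93 ± 1.31) and KCNJ12 (5.57 ± 0.189) led the inward rectifiers and calcium-activated channels.

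The store-operated and mechanosensitive channels were called in 9 of 10 cases. PIEZO1 (56.5 ± 2.85), a stretch-activated channel, led, followed by STIM1 (26.3 ± 2.07) and STIM2 (19.4 ± 1.37), sensors of stored calcium, and ORAI1 (17.9 ± 2.25), while PIEZO2 was absent. Of 25 TRP channel genes 9 were called, led by TRPM7 (29.2 ± 3.29), MCOLN3 (21.2 ± 2.65) and MCOLN2 (17.1 ± 2.61), with TRPV1 at 4.78 ± 0.57. Chloride and volume channels were called in 16 of 21 cases, led by CLIC1 (167 ± 6.46), CLIC4 (74.4 ± 2.07) and CLCN7 (47.6 ± 6.65). LRRC8A, the required subunit of the volume-regulated anion channel, had 19.4 ± 0.814, and CFTR was absent. PACC1 (19.3 ± 0.425) and ASIC1 (17 ± 0.588), proton-activated channels, were called with P2RX4 (9.35 ± 0.973) and ASIC3 (2.62 ± 0.552), and P2RX7 and ASIC2 were absent. Of 38 ligand-gated neurotransmitter channel genes 8 were called, among them CHRNA5 (47.9 ± 2.15) and CHRNB1 (8.65 ± 0.532). GJA1 (41.3 ± 1.2), GJC1 (18.5 ± 1.26) and PANX1 (14.6 ± 0.971) led the gap junction genes, and AQP3 was the single aquaporin called of 12.

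HOX genes, which encode position along the body axis, were called in 35 of 39 cases, against 62.6% of all coding genes. Those called had a median of 31.5 TPM. HOXB9 had 206, 198 and 208 TPM (204 ± 5.19) and HOXA9 193, 201 and 196 (197 ± 4.07), followed by HOXA10 (168 ± 2.69) and HOXA5 (117 ± 7.08). All 11 members of the HOXA cluster were called, the others including HOXA11 (42.7 ± 1.32) and HOXA6 (36.9 ± 3.15). In the HOXB cluster, HOXB6 (85.7 ± 4.35), HOXB8 (39.5 ± 2.6) and HOXB3 (35 ± 2.25) followed HOXB9, and HOXB1, the most 3′ gene, was absent. In the HOXC cluster HOXC4 (56.9 ± 2.41), HOXC10 (41.5 ± 2.59), HOXC9 (36.4 ± 3.25) and HOXC6 (34.6 ± 1.57) led. HOXD10 (70.8 ± 4.51) and HOXD13 (70.4 ± 3.5) overlapped at the top of the HOXD cluster, ahead of HOXD11. The members below 1 TPM were HOXC12 (0.198 ± 0.188), HOXD12 (0.281 ± 0.126) and HOXD1 (0.624 ± 0.22).

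**Figure D5:**
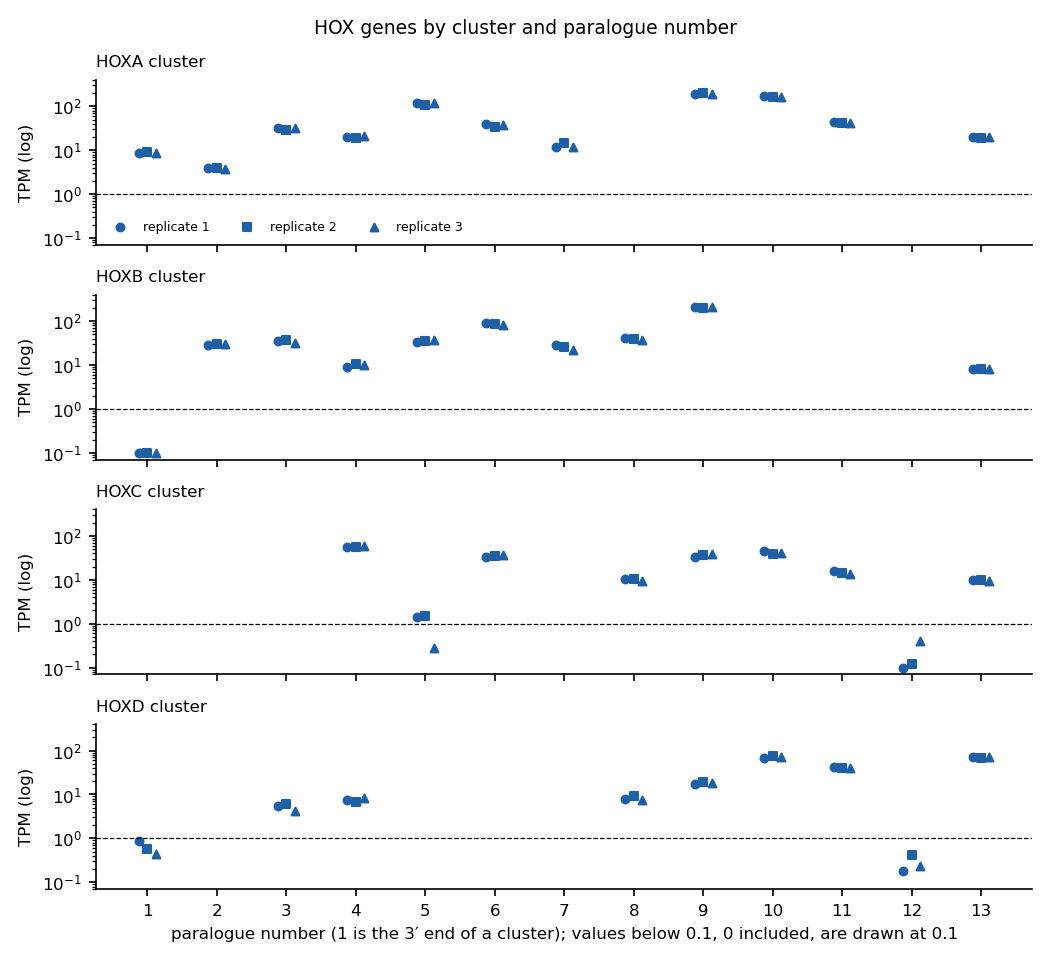
TPM in each of the 3 libraries (log axis) for HOX genes by paralogue number in the 4 clusters, with a dashed line at 1 TPM and values under 0.1, including 0, drawn at 0.1. HOXA9 and HOXB9 stand near 200 TPM, and HOXB1, HOXC12, HOXD1 and HOXD12 lie below the line.

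Other factor families were partly called. SOX12 (68 ± 1.75), SOX4 (48.1 ± 1.64), SOX21 (12 ± 0.311) and SOX2 led 12 called of 19 SOX genes, a share near the 62.6% of all coding genes. SOX1, SOX10, SOX11, SOX14 and SOX17 were absent. GATA2, GATA4 (17.5 ± 1.15), GATA6 (17.3 ± 1.06) and GATA3 were called and the erythroid GATA1 was absent. Of the PAX genes, PAX6, PAX3 (13.6 ± 0.956), PAX9 (6.03 ± 0.55), PAX2 and PAX5 (1.71 ± 0.702) were called, so the highest PAX gene was a neural and eye factor and not a renal one.

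In the MYC network, MYC had 208 ± 2.7, MAX 99.8 ± 8.9, MLX 51.8 ± 6.6 and MXD4 40.6 ± 2.51, and MYCN was below the threshold (0.231 ± 0.103). The NF-kB genes were ordered RELA (59.3 ± 2.15), NFKB1 (23.4 ± 5.24), NFKB2 (16.4 ± 2.81), REL (13.4 ± 0.534) and RELB (4.73 ± 0.555), with NFKB1 and NFKB2 overlapping. Of AP-1 genes, JUN (125 ± 20.6), JUND (64.5 ± 5.83), ATF3 (20.9 ± 8.63) and JUNB (11.6 ± 2.07) stood well above FOSB (2.04 ± 0.946), FOSL2 (1.65 ± 0.0933) and FOS (1.43 ± 0.635). HSF1 (89.5 ± 11.8) and HIF1A (85.1 ± 0.765) overlapped, and HSF1 also overlapped NFE2L1 (77.4 ± 6.35), while NFE2L2 had 54.5 ± 1.07, with EPAS1 at 12.8 ± 1.08 and HIF3A absent. VGLL4 (35.7 ± 1.01), TEAD4 (30.02 ± 2.11), TEAD1 (25.6 ± 1.65) and TEAD2 (19 ± 1.55) led the YAP and TEAD list, and YAP1 (16.7 ± 0.787) and WWTR1 (15.8 ± 0.241) overlapped.

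Secreted ligands differed between growth factors and cytokines. Of 56 growth factors and related ligands 30 were called (53.6%), against 62.6% of all coding genes. They were led by HDGF (411 ± 3.12), the heparin-binding MDK (119 ± 10.2) and VEGFB (50.5 ± 3.28). FGF1, FGF21, BTC, PTN and NTF3 were absent. Of 62 cytokines and chemokines 9 were called and 28 were absent. CXCL16 was highest (16.3 ± 2.21), then TNFSF9 (3.84 ± 0.115) and CSF1 (3.56 ± 0.65). The interferon genes IFNA1, IFNB1, IFNG and IFNL1 of that list had no count, and IFNE, another interferon gene, had 0.385 ± 0.23.

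Housekeeping machinery was called almost completely. All 78 cytosolic ribosomal protein genes were called, from RPS26 (378 ± 15.5) to RPL39, with a median of 1896 TPM. Of their tissue-restricted paralogues RPL22L1 was highest (436 ± 8.03) and RPL10L was absent. The 14 core proteasome subunits ran from PSMA5 (174 ± 4.97) to PSMA4 (485 ± 7.0). Of the immunoproteasome and thymoproteasome subunits PSMB10 alone was called (9.56 ± 0.489), and PSMB8 and PSMB11 were absent. The chaperonin genes were led by CCT5 (745 ± 29.9), while CCT6B had 1.15 ± 0.86 and CCT8L2 was absent. All 25 translation factors were called, the lowest being EIF5A2 (19.5 ± 0.437).

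The 13 mitochondrially encoded mRNAs ranged from MT-ND6 (282 ± 39.9) to MT-ATP8. MT-ND6 is the one coded on the other mitochondrial strand. The 40 nuclear respiratory chain genes were all called, from UQCRFS1 (51.4 ± 3.0) to ATP5F1B (927 ± 14.5). All 30 replication genes were called, from GINS3 (30.5 ± 1.69) to the sliding clamp PCNA (449 ± 13.5), and all 24 mitosis genes, from CENPA (30.6 ± 2.06) to CCNB1 (297 ± 8.02).

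Among the named long noncoding RNAs of the list 28 of 32 were called. The list holds selected RNAs, so its share does not stand for noncoding genes in general. Of all long intergenic noncoding RNA genes 7.25% were called, of antisense genes 12.1% and of genes typed as processed transcript 27.6%. Small nucleolar RNA host genes led, with SNHG29 (809.9 ± 14.9), SNHG5 (309.9 ± 15.5), GAS5 (236 ± 13.8) and SNHG8 (236 ± 1.18). NORAD (149 ± 1.86), a decoy for Pumilio proteins, was above the nuclear RNAs MALAT1 (90.9 ± 8.28) and NEAT1 (34 ± 4.47). HOTAIRM1 (52.9 ± 9.0), HOTAIR (11.1 ± 1.43) and HOTTIP (1.2 ± 0.322), all from HOX clusters, were called. MEG3 was absent. An mRNA kit was used, so the low values of RNAs without a poly(A) tail such as RMRP (8.86 ± 2.31) and TERC (3.41 ± 2.45) do not give their cellular level.

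Several whole families defined by gene symbol had no called member. None of 381 olfactory receptor genes was called, and 353 were absent. The highest was OR2W3 (0.784 TPM), then OR1F1 (0.458). Also at 0 called were 94 keratin-associated proteins, 45 defensins, 19 late cornified envelope proteins, 13 interferon alpha genes, 12 Siglec lectins, 8 small proline-rich proteins and 6 killer immunoglobulin-like receptors. Of 27 taste receptors TAS2R14 alone was called (1.04), and of 50 keratins KRT18, KRT10 (31.6), KRT8 and KRT222 (1.54).

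Other families were called in part. Cytochrome P450 enzymes were called in 16 of 55 cases, led by the sterol enzyme CYP51A1 (138), then CYP20A1 (17.6). Of UDP glucuronosyltransferases UGT3A2 alone was called (3.7), of crystallins CRYGD (9.94), and of clustered protocadherins 3 of 53, led by PCDHGC3 (9.19). Claudins were called in 3 of 24 cases, CLDN12 (29.5), CLDN15 (14.8) and CLDN1 (2.58), cadherins in 7 of 23 and C-type lectin domain proteins in 3 of 31. The MAGE family was called in 7 of 34 cases, led by MAGED1 (248.8) and MAGED2 (83.1). Collagens were called in 21 of 44 cases (47.7%), led by the basement membrane chain COL4A2 (46) and the cartilage chain COL2A1 (44.2). Laminins, led by LAMC1 (77.2) and LAMB2 (38.1), were called in 8 of 12 cases (66.7%), near the 62.6% of all coding genes.

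At the other end, all 78 mitochondrial ribosomal proteins were called, led by MRPL37 (347), with all subunits of the initiation factor EIF3 (13), the COP9 signalosome (9), the anaphase-promoting complex (10) and all 9 minichromosome maintenance proteins. Zinc finger ZNF genes were called in 413 of 509 cases, led by ZNF703 (363), with a median of 6.26 TPM. Ubiquitin-specific proteases were called in 47 of 51 cases, kinesins in 33 of 39 and RAB GTPases in 52 of 63. Solute carriers, led by SLC25A5 and SLC25A3 (656), did not stand apart. They were called in 215 of 367 cases (58.6%), near the 62.6% of all coding genes.

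Absent genes lay in runs along chromosomes. The longest run of neighbouring coding genes with no count covered 53 genes on chromosome 11, from OR4C13 to OR5AK2 (chr11:49952391-56989867, hg38), of which 50 are olfactory receptor genes. A run of 38 genes on chromosome 1, from RPTN to SPRR2E (chr1:152153595-153106184), lies in the epidermal differentiation complex. The longest run of called neighbours held 39 genes on chromosome 2, from VRK2 to CNRIP1 (chr2:57907629-68320051), with a median of 18.7 TPM. Among the autosomes and chromosome X, the share of coding genes called was lowest on chromosomes X (51.8%), 11 (53.2%) and 21 (54.5%). It was highest on chromosome 14 (70.5%).

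Precision depended on the level. The median coefficient of variation over the 3 libraries was 21.99% for coding genes from 1 to 2 TPM, 14.4% from 2 to 5, 10.2% from 5 to 10, 5.62% from 10 to 100, 2.94% from 100 to 1000 and 2.33% above 1000 TPM. Genes near the threshold are thus not firmly on either side of it, and 1054 called genes had fewer than 10 counts in a library. Another limit is length: 383 called genes had an effective length under 200 bases. The widest relative spread was sought among coding genes at 5 TPM or more with at least 10 counts in each library. It was in PLD1, with 16.1, 4.2 and 3.8 TPM, then TMEM220, with 6.31, 4.67 and 16.1, and PLXNB1, with 20.9, 7.12 and 7.1. Their estimated counts lay closer together: 167, 178 and 211 for PLD1, 82, 72 and 102 for TMEM220 and 293, 278 and 291 for PLXNB1. The spread in TPM of these genes was thus not matched by their counts, and its source was not tested. MAGED4, with 26.1, 13.3 and 6.02, has a near-identical copy, MAGED4B. Replicate 2 had the lowest HK2, ALDOA, PKM and LDHA values given above and the highest mitochondrial share of TPM, 4.53% against 4.12% and 3.92%, and whether these are related was not tested.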

How the data were processed

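Messenger RNA libraries of HEK293 were sequenced, and the 3 with the wild-type label were analysed. The submitters' processing notes list the tools FastQC, fastp, DRAGEN and Picard and the build hg38. The sources used here give no version or role of these tools, no annotation release and no strand setting. The deposited TPM values and the deposited estimated counts, 1 row per gene, were used as they stand, per the file headers. The deposited TPM sum to 1000000 in each library, and 7.28% to 7.47% of the estimated counts were not whole numbers. The 45 Y pseudoautosomal copies were removed from 60609 rows. Of the remaining genes, 60295 (99.6%) were in a name table and 58457 had a type and position in GENCODE release 29.

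One group allows no comparison, so levels are means with SD, calls are counts, and no test was run across genes. Neighbouring paralogues were called apart where their ranges over the 3 libraries did not overlap. Floors are 3 counts per library. Gene runs ignore genes of other types.

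The 141 gene lists, 34 symbol families and the naming rule were chosen with earlier results of these data known. The rule takes the 20 most abundant genes. From isoform, lineage and factor lists it takes up to 6 of the highest called members and, where few, the absent ones, and from receptor, channel and secreted lists the 3 highest (all of up to 5). From machinery lists it takes the highest and lowest, from families the 2 or 3 highest, and the JAK and STAT genes. Some members it names are not reported here. Well-known members below 1 TPM were added. Genes singled out beyond the rule were chosen after their values were seen. ADGRC1 and ADGRF2P had no match by symbol.

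Promoters came from RefSeq (GRCh38.p14), matched by symbol. Computations used Python 3.11.15 with pandas 2.3.3 and numpy 2.4.6, matplotlib 3.10.9 for figures, and, for alternative scalings in R 4.3.3, edgeR 4.0.16 (TMM) and DESeq2 1.42.0 (RLE). The calling step was tested on simulated counts.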

Additional observations from a re-analysis of the deposited data

How the results depend on the processing

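The counts of called genes, of called list members in each of the 8 kinds of list and of absent genes stayed within 1.5 times their value under each alternative. The called genes numbered 17364 at a threshold of 0.5 TPM, 13817 at 2 TPM, 14498 with 1 TPM required in each library, 14662 on the CPM scale, 14472 with at least 10 counts in each library, 15280 with annotated in place of effective length and 15597 without mitochondrial genes. TMM and RLE scaling each gave 15526. Leaving out 1 library gave 15505 to 15560 called genes and 35403 to 35648 absent ones. Absent genes numbered 38492 as a mean under 0.1 TPM and 39287 as at most 3 counts in all. The leading paralogue stayed in 48 of 50 families with annotated length, which changed the order of the phosphofructokinases and the BCL2 family, and in 49 without replicate 1 or without replicate 2, which put LDHA first. No paired analysis was possible because a single group was described and nothing was compared between groups. Depth limits absence to the floors given, and effective length limits short genes: with annotated length BCYRN1 stood at 0.363 and MT-ATP8 at 0.380 of its level, and EYA1 at 1.69 and ADORA2A at 1.73.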
